A study of Homo sapiens with 6 samples.

Results

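The genes described here encode the proteins of the cytosolic ribosome. They were chosen by symbol alone, as rows of the deposited expression table whose symbol is RPL or RPS followed by a number and at most the letter A, together with RPLP0, RPLP1, RPLP2, RPSA and RPS4X. The rule gave 77 of the 30960 genes in the table, 46 of the large and 31 of the small subunit. FAU, whose ribosomal protein is made as a fusion, and paralogues such as RPL36AL and RPS27L fall outside the rule and are given separately. RNA was taken from HEK293 cells, an established human embryonic kidney line, 48 h after transient transfection with plasmid at 158 ng per square centimetre by lipofection. Group PKI carried a fusion of GFP with PKI1-24, and group inPKI, the control, carried a fusion of GFP with inPKI1-24, so that both groups hold transfected cells making a GFP fusion. PKI proteins inhibit protein kinase A, the kinase activated by cAMP, by binding its catalytic subunit. There were 3 libraries a group, lettered A to C, and the labels mention no selection of transfected cells. Whether they stem from separate cultures is not given, so a p-value covers the spread between libraries alone, and that spread may be technical.

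The ribosome joins a small subunit, which holds the mRNA and reads its codons, to a large subunit, which forms the peptide bond and passes the new chain through an exit tunnel. Most of its proteins are present in a single copy in each particle, and their mRNAs are among the most abundant of a dividing cell. In vertebrates these mRNAs begin with a terminal oligopyrimidine tract (TOP), a run of C and U directly at the cap, through which mTOR signalling and the binding protein LARP1 control their translation and stability together.

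The start sites of 9 of the genes are shown because the tract at the start is the sequence feature that the group is known for and that the choice by symbol did not use. They are from the RefSeq promoter table on GRCh38.p14, in DNA letters, and hold 25 bases before and 20 bases from the start of transcription. Capitals mark the run of C and T that comes within 10 bases of the start. RPS21, RPL27, RPL41 and RPS27A are among the genes with the smallest p-values below, RPL39, RPS19 and RPLP0 carry the tract in genes of the tunnel, the head and the stalk, and RPL3 and RPL28 had the 2 changes nearest to 0. The windows of RPS21 (chr20:62387078-62387122), RPL27 (chr17:42998394-42998438), RPL41 (chr12:56116608-56116652), RPS27A (chr2:55232653-55232697), RPS19 (chr19:41860230-41860274) and RPL28 (chr19:55385907-55385951) are on the plus strand. Those of RPL39 (chrX:119791611-119791655), RPLP0 (chr12:120201092-120201136) and RPL3 (chr22:39319604-39319648) are on the minus strand.
RPS21: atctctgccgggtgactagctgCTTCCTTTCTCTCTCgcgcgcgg
RPL27: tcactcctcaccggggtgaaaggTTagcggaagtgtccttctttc
RPL41: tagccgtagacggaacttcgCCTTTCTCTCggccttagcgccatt
RPS27A: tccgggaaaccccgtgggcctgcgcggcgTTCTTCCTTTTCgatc
RPL39: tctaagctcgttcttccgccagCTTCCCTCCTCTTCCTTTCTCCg
RPS19: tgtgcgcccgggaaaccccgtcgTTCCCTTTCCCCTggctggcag
RPLP0: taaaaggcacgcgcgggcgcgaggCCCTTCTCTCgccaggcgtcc
RPL3: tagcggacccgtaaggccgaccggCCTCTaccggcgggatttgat
RPL28: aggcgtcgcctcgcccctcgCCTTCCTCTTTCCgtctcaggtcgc

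The promoter table held 62 of the 77 genes by symbol. A run of at least 8 bases of C and T came within 10 bases of the start in 52 of the 62 (83.9%), against 18.3% of the 27305 genes of the table. The longest such run had a median of 11.5 bases in the ribosomal protein genes and 5 bases in all genes. The letters CTTTC on the sense strand within 20 bases of the start were present in 34 of the 62 (54.8%), against 6.96% of all genes. On the opposite strand the same letters were present in 2 of the 62 (3.23%), against 5.39% of all genes. CTTTC lies inside the run in RPS21, RPL41, RPL39, RPS19 and RPL28, so the measures of the run and of the letters overlap, and a gene with several annotated starts counts when any of them matches.

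The deposited values are CPM, reads scaled to the size of the library, and the reads recovered from them came to 17244715 to 23589438 per library. PKIA, the alpha form of PKI, was measured first as a check of the labels, at 9.05, 11.3 and 8.65 CPM in libraries A to C of inPKI and 43.2, 42.3 and 46.1 CPM in those of PKI, a log2 change of 2.08 ± 0.088 (SE, limma adjusted p = 5.64e-09). The 6 libraries separated by label. Since the groups carried PKI1-24 and inPKI1-24, the values alone do not show which group held which construct. Reads of the construct and of the cell's own gene cannot be told apart. Of the HEK293 markers NEFM measured 118 to 136 CPM, KRT18 19.9 to 24.3, KRT8 7.55 to 9.42 and PAX2 0.579 to 1.31. Among markers of other cells PTPRC, CD3E, PECAM1, ALB and COL1A2 stayed at or below 0.156 CPM, and KRT5 measured 9.84 to 26.5 CPM. Library PKI C stood apart: its limma sample weight was 0.289 against 1.05 to 1.60 in the others, and its CPM column had the lowest sum (754299). Rows of genes of mitochondrial DNA, of any type, summed to 32210 CPM in PKI C against 21805 to 24463 in the others. Over all 14275 genes tested, the median difference from the inPKI mean was −0.050 (log2) in PKI C and between −0.0031 and 0.025 in the other libraries. Leaving it out moved the log2 change of 46 of the 77 genes by more than 1.5 times or to the other side of 0, so the value without PKI C is given beside each log2 change, list median or subunit sum below that it moved as far, and its part in them beyond those values was not tested.

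Ribosomal protein mRNAs were lower in PKI than in inPKI for all 77 genes, by small amounts. Their summed level was 64599, 65568 and 63002 CPM in libraries A to C of inPKI and 58616, 61179.6 and 52523 CPM in those of PKI. The highest PKI library lay below the lowest inPKI library. The group means were 64389.7 ± 1296 and 57439.7 ± 4447 CPM (SD, n = 3 each), a difference of −10.8%, or −6.98% without PKI C. As a percent of all CPM in the column, the 77 genes made up 8.24, 8.41 and 8.14 in inPKI and 7.49, 7.79 and 6.96 in PKI. CPM is a share of a library's reads, so less of these mRNAs and more of other RNAs cannot be told apart here. In bulk cultures a difference in all cells and one in some of them cannot be told apart either.

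**Figure D1:**
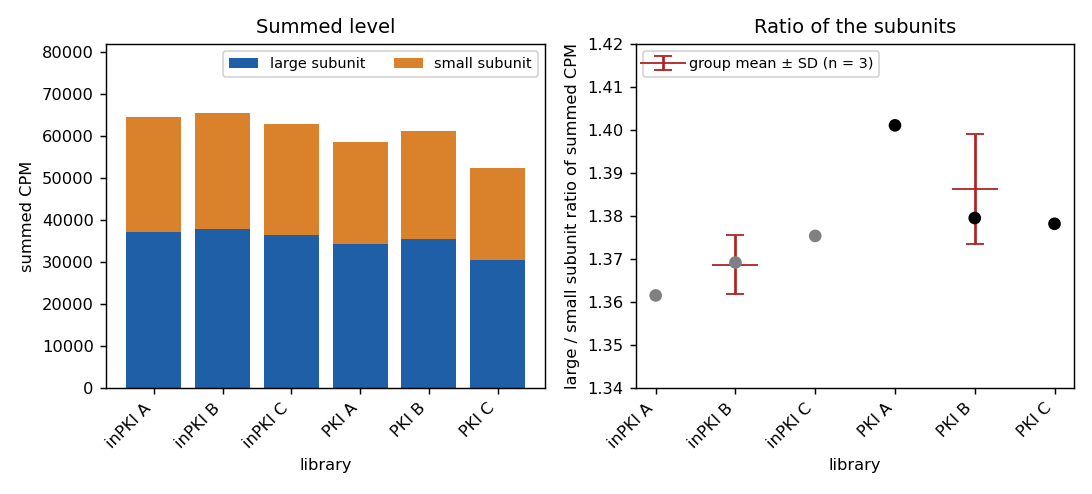
Left, stacked bars give the CPM summed over the 46 large and 31 small subunit genes in each library, from 52523 in PKI C to 65568 in inPKI B. Right, points give the ratio of the large to the small subunit sum in each library on an axis that does not start at 0, with the mean ± SD of each group (n = 3); the 3 PKI libraries lie between 1.38 and 1.40.

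Gene by gene, no member passed the threshold: limma called 0 of 77 at an adjusted p below 0.05, against 18 of 14275 genes tested (0.126%), of which 4 were lower in PKI (0.028%). The smallest adjusted p of a member was 0.119, in RPS21. At an unadjusted p below 0.05, 48 of the 77 were lower, 25 of the large and 23 of the small subunit, against 6.16% of all genes tested. All 77 log2 changes were below 0, against 52.6% of all genes. The median log2 change was −0.17, against −0.0074 over all genes, and the range ran from −0.31 in RPL41 to −0.053 in RPL28. In CPM this is a difference of −18.9% to −3.31%, with 27 genes less than 10% lower, 50 genes 10 to 20% lower and 0 beyond 20%. In 51 of the 77 every PKI library was lower than every inPKI library, against 8.88% of all genes. Without PKI C that count was 51, against 10.6% of all genes, and could not differ, since PKI C lay below every control in all 77. The median log2 change without PKI C was −0.11, and 75 of 77 were below 0, against 43.8% of all genes. Of the 77, 55 then had an unadjusted p below 0.05, against 4.3% of all genes lower at that level.

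The number of members called depended on the tool. On the reads recovered from the CPM, DESeq2 called 52 of the 77 lower, 30 of the large and 22 of the small subunit (0.939% of all genes were called lower), and 20 without PKI C (0.371%). All 20 were among the 52. edgeR's quasi-likelihood test on the same reads called 0 of the 77 lower (0.00701% of all genes), with 63 at an unadjusted p below 0.05, against 7.36% of all genes lower at that level. In limma, leaving out PKI B called RPL9, RPL34, RPS12, RPS21, RPS27A and RPS29 (6 of 77, 0.21% of all genes), and leaving out PKI C called RPL27 (1 of 77, 0.0771%). Sample weights, which give PKI C less influence, called RPL27, RPS15A, RPS21, RPS27A and RPS29 (5 of 77, 0.252%).

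The PKI libraries differed among themselves more than the control libraries did. Relative to the inPKI mean, the median over the 77 genes was −0.15 in PKI A, −0.070 in PKI B and −0.30 in PKI C on the log2 scale, and 0.0031, 0.029 and −0.030 in the control libraries A to C. PKI C was the lowest of the 6 libraries for 71 genes and PKI A for the other 6. PKI C lay below every control library in all 77 genes (45.5% of all genes tested), PKI A in 72 (26.5%) and PKI B in 54 (20.5%). PKI B lay above PKI A in 60 genes. The coefficient of variation had a median of 2.43% over the 77 genes in inPKI and 8.61% in PKI, and was higher in PKI for 72. Over PKI A and PKI B alone the median was 3.88%, and the coefficient was above that of inPKI for 56 genes. That value rests on fewer libraries than the control value, so they are not like for like. Counting error was at most 2.07% for any gene in any library, from 2326 to 118999 reads.

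**Figure D2:**
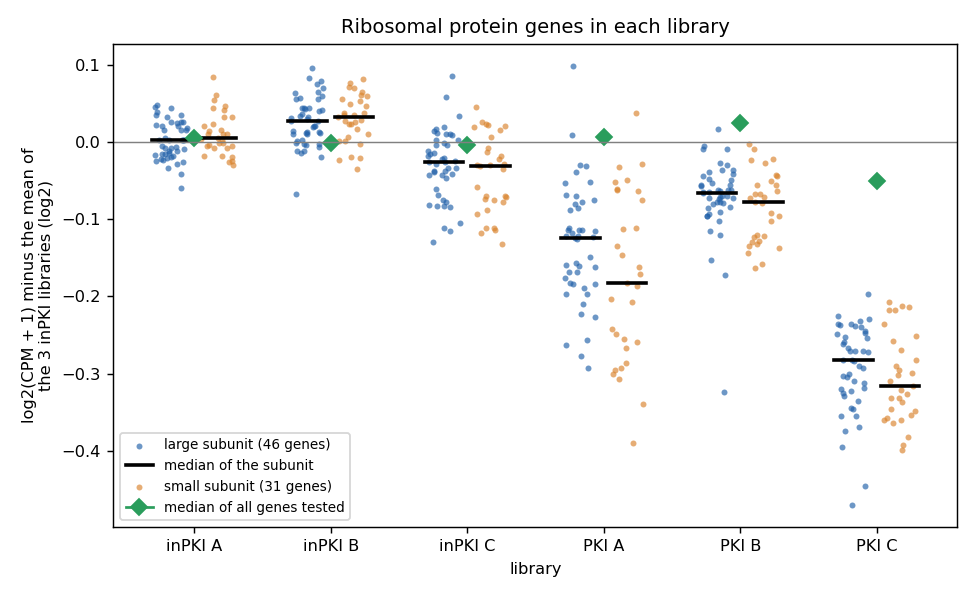
Each point is 1 gene in 1 library, as log2(CPM + 1) minus the mean of the 3 inPKI libraries; bars mark the subunit medians and diamonds the median of all 14275 genes tested. PKI A to C have medians of −0.15, −0.070 and −0.30 over the 77 genes, while the diamond lies at −0.050 in PKI C.

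The 8 genes with the smallest p-values were RPS21, RPS15A, RPS27A, RPS29 and RPS13 of the small subunit and RPL27, RPL41 and RPL35 of the large. RPS21, a small protein on the body of the small subunit (ENSG00000171858.17, chr20:62387116-62388520 on GRCh38), measured 164, 165 and 159.5 CPM in libraries A to C of inPKI and 131, 149 and 129 CPM in those of PKI. The groups did not overlap, and PKI B was the nearest to the controls. Its means were 163 ± 2.77 CPM in the controls against 136 ± 10.7 CPM with PKI, a log2 change of −0.26 ± 0.060 (adjusted p = 0.119 in limma, 0.000667 in DESeq2 and 0.00218 in DESeq2 without PKI C).

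RPL27, a large subunit protein with no pseudogene row in the table (ENSG00000131469.12, chr17:42998273-43002959 on GRCh38), measured 660.3, 644 and 643 CPM in libraries A to C of inPKI and 555, 576 and 468 CPM in those of PKI. The 3 control libraries lay close together and all PKI libraries lay below them, PKI C the lowest. The log2 change was −0.29 ± 0.077 (adjusted p = 0.151 in limma), or −0.20 with an adjusted p of 0.0316 in limma without PKI C. DESeq2 gave an adjusted p of 5.98e-05 with all libraries.

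RPL41, the shortest ribosomal protein, with a coding length of 75 bases (ENSG00000229117.8, chr12:56116586-56117943 on GRCh38), measured 987, 1029.6 and 1071 CPM in libraries A to C of inPKI and 928, 821 and 755 CPM in those of PKI. It had the log2 change farthest from 0 of the 77, −0.31 ± 0.083 (limma adjusted p = 0.16, DESeq2 adjusted p = 9.35e-05, or 0.118 in DESeq2 without PKI C). PKI A was its highest PKI library, whereas PKI B was the highest for most members.

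RPS27A encodes ubiquitin joined to a protein of the small subunit's head (ENSG00000143947.13, chr2:55231903-55235853 on GRCh38), and it measured 659, 682 and 595 CPM in libraries A to C of inPKI and 509, 589 and 491 CPM in those of PKI. PKI B lay just below the lowest control, inPKI C. The log2 change was −0.29 ± 0.079 (limma adjusted p = 0.162). RPS15A, of the body, measured 558, 539 and 485 CPM in libraries A to C of inPKI and 429, 469.8 and 414 CPM in those of PKI, with a log2 change of −0.27 ± 0.071 (limma adjusted p = 0.151). For RPS27A and RPS15A the lowest control was inPKI C, and the same held for 52 of the 77 genes.

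RPS29, a zinc-binding protein of the head, measured 135, 135 and 123 CPM in libraries A to C of inPKI and 99.6, 125 and 102 CPM in those of PKI. Its PKI B value lay above inPKI C, so that its groups overlapped. The log2 change was −0.27 ± 0.076 (limma adjusted p = 0.167). RPS13, of the body, measured 333, 342 and 327 CPM in libraries A to C of inPKI and 296, 307 and 268 CPM in those of PKI, a log2 change of −0.20 ± 0.062 (limma adjusted p = 0.19). RPL35, which lies at the exit of the peptide tunnel, measured 602, 625 and 576 CPM in libraries A to C of inPKI and 529, 540.5 and 473 CPM in those of PKI, a log2 change of −0.23 ± 0.069 (limma adjusted p = 0.194). The groups of RPS13 and RPL35 did not overlap. DESeq2 called all 8 of these genes lower, at adjusted p-values from 5.98e-05 in RPL27 to 0.0125 in RPS29. Without PKI C it called 4 of the 8, RPS21, RPL27, RPS13 and RPL35, and its adjusted p-values were 0.118 in RPL41, 0.231 in RPS27A, 0.11 in RPS15A and 0.446 in RPS29.

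**Figure D3:**
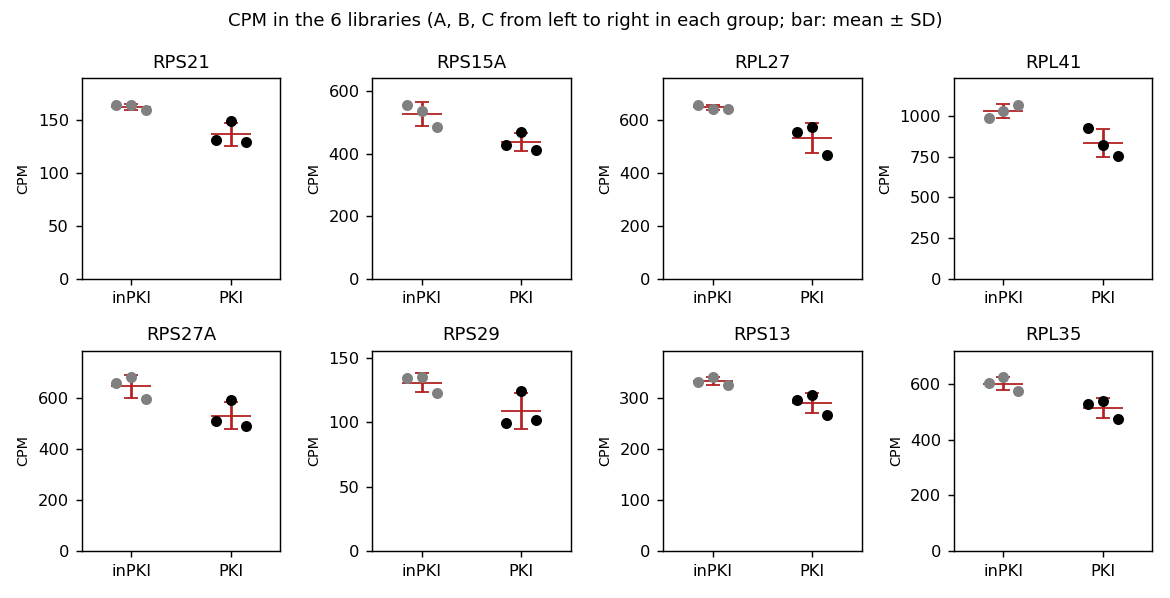
CPM of the 8 members with the smallest p-values, with points for libraries A, B and C from left to right in each group and the mean ± SD (n = 3) in red; each vertical axis starts at 0. The PKI points lie below the inPKI points in 7 of the 8 genes, and in RPS29 PKI B (125 CPM) lies above inPKI C (123 CPM).

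Within the large subunit, the stalk that recruits elongation factors is formed by RPLP0, RPLP1 and RPLP2 on a base that includes RPL12. RPLP0 measured 1489, 1481 and 1480.5 CPM in libraries A to C of inPKI and 1407, 1479 and 1269 CPM in those of PKI, with PKI B just below the lowest control. RPLP1 measured 765, 748 and 727 CPM in libraries A to C of inPKI and 655, 707 and 610.3 CPM in those of PKI. The log2 changes were −0.10 ± 0.084 in RPLP0, −0.19 ± 0.071 in RPLP1, −0.15 ± 0.073 in RPLP2 and −0.14 ± 0.076 in RPL12, with limma adjusted p-values of 0.607, 0.282, 0.38 and 0.433. Without PKI C the log2 changes were −0.041, −0.13, −0.10 and −0.092 in that order. The stalk groups overlapped in RPLP2 only. DESeq2 called RPLP1 and RPL12 lower and not RPLP0 or RPLP2, and without PKI C it gave RPL12 an adjusted p of 0.0534.

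RPL5 and RPL11 form a particle with the 5S ribosomal RNA, which outside the ribosome binds MDM2. RPL5 measured 956 ± 21.6 CPM in the controls against 881 ± 66.1 CPM with PKI and RPL11 958 ± 47.7 CPM in the controls against 859 ± 54.6 CPM with PKI (SD, n = 3 each). Their log2 changes were −0.12 ± 0.076 and −0.16 ± 0.076, or −0.058 and −0.12 without PKI C, and RPL11 overlapped between groups. RPL3 and RPL10 lie near the site of peptide bond formation. RPL3 measured 1767, 1817 and 1813 CPM in libraries A to C of inPKI and 1811, 1788 and 1514 CPM in those of PKI, with PKI A and PKI B inside the range of the controls and PKI C below it. Its log2 change was −0.082 ± 0.093 (limma adjusted p = 0.721) and 0.00045 without PKI C. RPL10 measured 842, 879 and 879 CPM in libraries A to C of inPKI and 843, 828 and 671 CPM in those of PKI and had a log2 change of −0.16 ± 0.086, or −0.052 without PKI C.

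Proteins at the tunnel through which the new chain leaves are encoded by RPL4, RPL17, RPL23A, RPL35 and RPL39. Their log2 changes were −0.11 ± 0.091, −0.16 ± 0.070, −0.16 ± 0.079, −0.23 ± 0.069 and −0.22 ± 0.074, and only RPL17 overlapped between groups. Without PKI C they were −0.034, −0.11, −0.077, −0.17 and −0.13. RPL39, one of the shortest coding sequences of the group, measured 467, 478 and 478 CPM in libraries A to C of inPKI and 422, 445 and 360.3 CPM in those of PKI. RPL4, one of the longest, measured 1707, 1749 and 1692 CPM in libraries A to C of inPKI and 1680.2, 1671 and 1421 CPM in those of PKI. RPL4 lay closest to 0 of these genes, with and without PKI C.

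RPL28, chosen after its values were seen because it lay closest to 0, measured 284, 274 and 305 CPM in libraries A to C of inPKI and 308, 282 and 245 CPM in those of PKI. PKI A had the highest value of all 6 libraries and PKI C the lowest. The log2 change was −0.053 ± 0.076 (limma adjusted p = 0.784), and it was 0.036, above 0, without PKI C.

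In the small subunit, RPSA, RPS2 and RPS3 lie where the mRNA enters or leaves, and RPSA is also known as a laminin receptor. RPS2, the highest member by CPM in every library, measured 4293, 4236 and 4382 CPM in libraries A to C of inPKI and 4151, 3960.0 and 3519 CPM in those of PKI. RPS3 measured 1321, 1355 and 1308 CPM in libraries A to C of inPKI and 1209, 1246 and 1036 CPM in those of PKI. RPSA measured 1156, 1185 and 1199 CPM in libraries A to C of inPKI and 1129, 1173 and 952 CPM in those of PKI. Their log2 changes were −0.15 ± 0.12, −0.19 ± 0.085 and −0.13 ± 0.087, and only RPSA overlapped between groups, with PKI B above inPKI A. Without PKI C the log2 changes were −0.086, −0.11 and −0.036.

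RPS6, the member that S6 kinases phosphorylate, measured 2049, 2082 and 1921 CPM in libraries A to C of inPKI and 1705, 1911 and 1643 CPM in those of PKI, a log2 change of −0.20 ± 0.092 (limma adjusted p = 0.349). RPS4X, encoded on the X chromosome, measured 2439.9, 2519 and 2403 CPM in libraries A to C of inPKI and 2350.2, 2382 and 2017 CPM in those of PKI, a log2 change of −0.13 ± 0.099 (limma adjusted p = 0.584). Both were lower in each PKI library than in each control, and without PKI C their log2 changes were −0.16 and −0.052. RPS14 and RPS26, which meet near the exit of the mRNA channel, had log2 changes of −0.18 ± 0.076 and −0.16 ± 0.078, or −0.093 and −0.060 without PKI C. RPS26 measured 223, 219 and 225 CPM in libraries A to C of inPKI and 228, 199 and 174 CPM in those of PKI, so that PKI A was the highest of its 6 libraries. RPS19, of the head, measured 532, 545 and 519.6 CPM in libraries A to C of inPKI and 476, 481 and 408 CPM in those of PKI and had a log2 change of −0.23 ± 0.071, or −0.15 without PKI C. RPS27, a zinc-binding protein, had a log2 change of −0.14 ± 0.071 and overlapping groups.

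**Figure D4:**
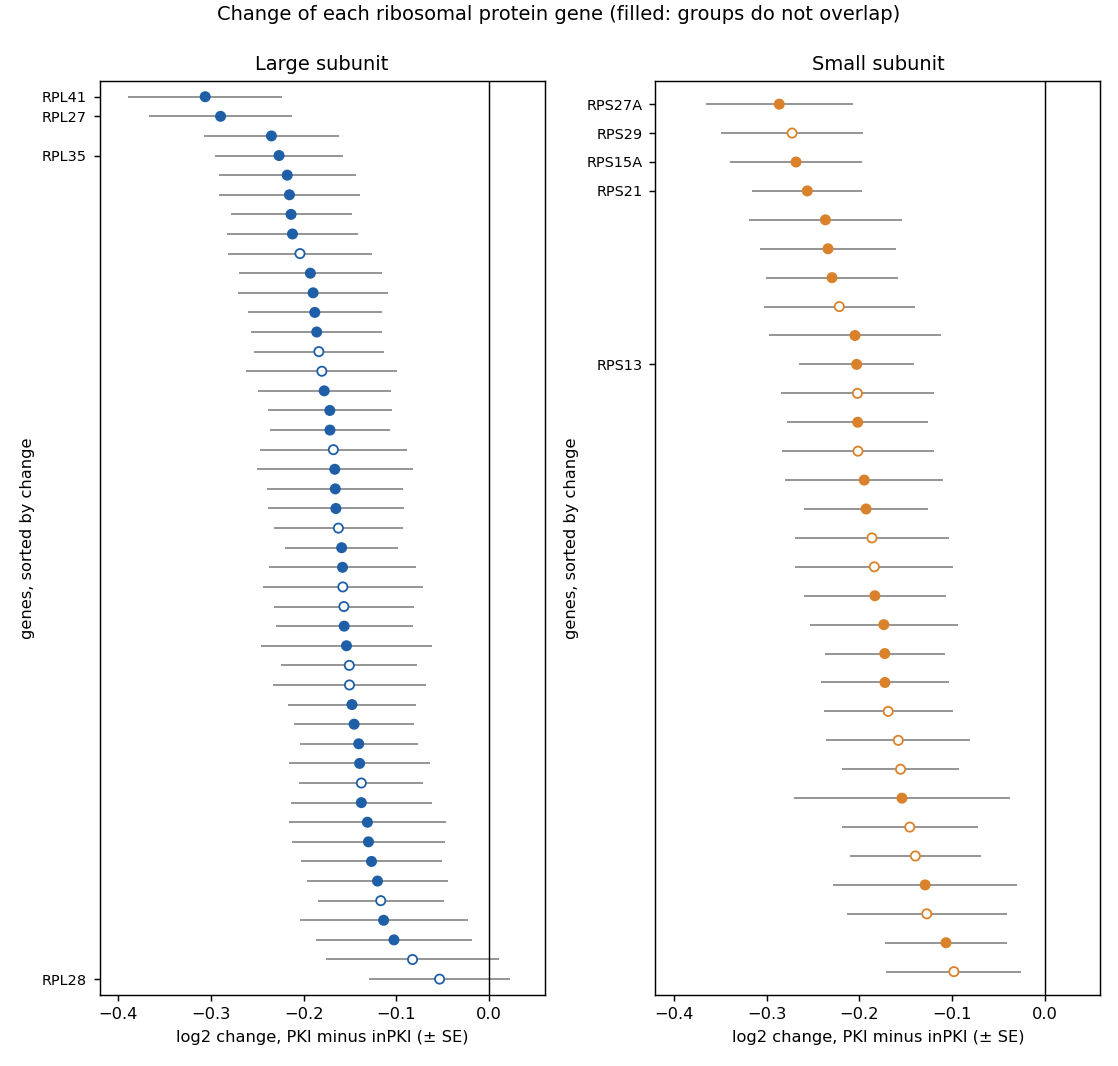
Log2 change of each gene, PKI minus inPKI, with its standard error, for the 46 large (left) and 31 small (right) subunit genes, sorted; filled points are genes whose groups do not overlap, and names stand at the 8 genes of smallest p and at RPL28. Every point lies below 0, from −0.31 in RPL41 to −0.053 in RPL28.

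The subunits were compared with each other within each library, where the scaling of the library cancels. The ratio of the large to the small subunit sum was 1.36, 1.37 and 1.38 in libraries A to C of inPKI and 1.40, 1.38 and 1.38 in those of PKI. The lowest PKI ratio (1.378) lay just above the highest inPKI ratio (1.375). The group means were 1.369 ± 0.0069 and 1.386 ± 0.0129 (SD, n = 3 each), a difference of 0.0176, and with 3 libraries a group an exact permutation test could not go below 0.1. The large subunit sum differed by −10.3% and the small subunit sum by −11.5%, or by −6.37% and −7.81% without PKI C. The median log2 change was −0.16 over the large and −0.19 over the small subunit genes, or −0.096 and −0.13 without PKI C. Groups did not overlap in 33 of 46 large (71.7%) and 18 of 31 small subunit genes (58.1%), while 25 of 46 (54.3%) and 23 of 31 (74.2%) had an unadjusted p below 0.05, so the counts point in opposite directions. Without PKI C the shares with no overlap could not differ, since PKI C lay below every control in all 77 genes. In that setting 33 of 46 (71.7%) and 22 of 31 (71.0%) had an unadjusted p below 0.05.

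Transcript length moved with the result. The 77 genes had a median transcript length of 709 bases, against 2711.5 bases over all genes tested, and 58 of them were under 1 kb, against 10.6% of all genes. With all genes tested ordered by length into 10 bins of near equal number, the bin of the shortest (153 to 964 bases) held 56 of the 77. Its other genes had a median log2 change of −0.12, and those of the next bin, which held 13 members, −0.075. In the bin of the longest the median of the other genes was 0.10. Without PKI C these medians were −0.072, −0.035 and 0.090. After removal of a smooth trend of length from each library, the 77 genes had a median log2 change of −0.068 (−0.060 large, −0.085 small), with 73 below 0 and 18 at an unadjusted p below 0.05, against 4.62% of all genes. limma then called 0 of the 77 and 0% of all genes lower. Without PKI C as well, the median was −0.046 and 65 were below 0. Because most ribosomal protein genes are short, the trend and the members share much of their range. Transcript length here is that of the transcript with the longest coding sequence, which can be long for a short protein. RPL37 (7686 bases, coding length 291) and RPL27A (4916 bases, coding length 444) were thus adjusted as long genes. Their log2 changes were −0.15 and −0.20 before removal of the trend and −0.23 and −0.24 after it.

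The change also varied with length among the 77. Across members the log2 change had a Pearson's r of 0.29 and a Spearman's rho of 0.36 with log2 transcript length, and of 0.42 and 0.32 with log2 coding length. With GC content r was 0.14 and with log2 CPM 0.25. These are descriptions over 77 genes measured in the same 6 libraries, which are not independent replicates. After removal of the length trend RPL41 had a log2 change of −0.16, RPS27A −0.18, RPS29 −0.18, RPL27 −0.15 and RPS21 −0.10.

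**Figure D5:**
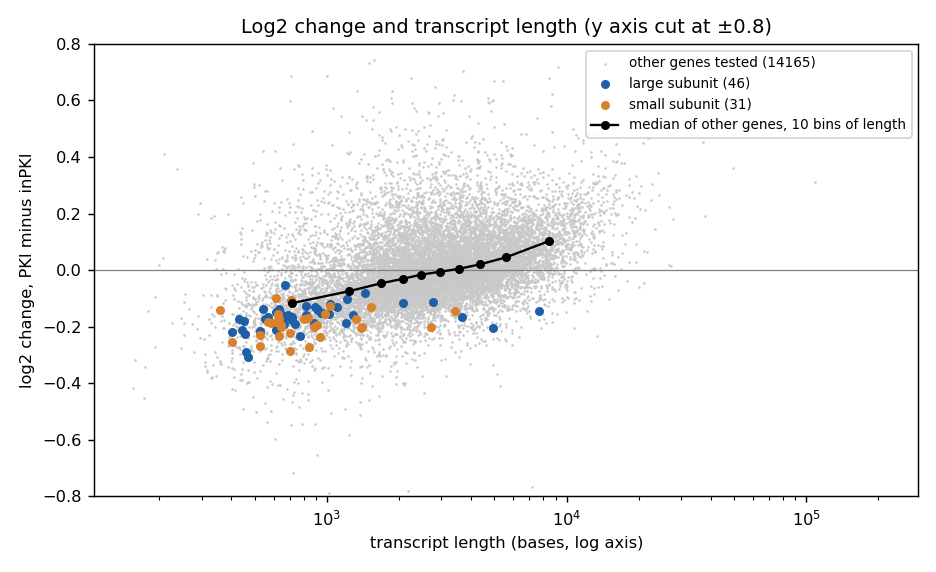
Log2 change, PKI minus inPKI, against transcript length on a log axis for the 77 members (blue large, orange small subunit) and the other genes tested (grey); the line joins the medians of the other genes in 10 bins of length, from −0.12 in the shortest to 0.10 in the longest. The members lie at the short end, all below 0, and genes beyond ±0.8 are outside the axis.

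By level, all 77 genes were expressed in every library, 76 of them above 100 CPM throughout, and the exception was RPS29 in PKI A at 99.6 CPM. Levels of different genes were compared per kilobase of the transcript with the longest coding sequence, as a mean over all 6 libraries. RPS2 was highest at 4152 CPM per kilobase, followed by RPL8 at 2064, RPL41 at 1987, RPS18 at 1929 and RPL13A at 1764. RPS2 remained the first with the union of all exons and the second with the coding length as the divisor. The lowest were RPL37 at 68.3, RPS29 at 142, RPL37A at 148, RPL27A at 154 and RPS23 at 178 CPM per kilobase. Of these RPS29 was the last of the 77 with both other lengths, whereas RPL37 was the 15th with the coding length, since its annotated transcript of 7686 bases is mostly untranslated. The order of the lowest genes thus depended on the length used.

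Ribosomal protein genes have many processed pseudogenes, copies without introns to which reads of the parent can align. The table held 582 rows named as pseudogenes of 72 of the 77 genes. Their share of the parent and pseudogene sum had a median of 0.595% and was over 5% in 5 genes, RPS2 (15.1%), RPL23A (7.21%), RPL7 (5.50%), RPL21 (5.38%) and RPSA (5.12%), whose own levels are uncertain where counting split reads between the copies. RPL27, RPL28, RPL38, RPLP2 and RPS25 had no pseudogene row. Summed over all rows, the pseudogenes measured 1614 ± 33.2 CPM in the controls and 1426 ± 75.2 CPM with PKI (SD, n = 3 each), a difference of −11.7%. With pseudogene rows added to their parent, limma again called 0 of 77 and the median log2 change was −0.17.

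The other genes of ribosome production were described from lists, and limma called 0 members at an adjusted p below 0.05 in each of the 7 lists. DESeq2 called lower 1 of 2 genes made as fusions, 1 of 6 paralogues tested and 2 of 18 other mRNAs with the tract. It called 0 in the other lists, and 0.939% of all genes lower. FAU, whose product is a ubiquitin-like domain joined to a ribosomal protein, measured 263, 266 and 254 CPM in libraries A to C of inPKI and 235, 242 and 199.5 CPM in those of PKI, with no overlap and a log2 change of −0.21 ± 0.069, or −0.13 without PKI C. The counts below 0 in the lists stand beside 52.6% of all genes tested, or 43.8% without PKI C. Of 8 paralogues 6 were tested, 5 of them below 0, with a median of −0.18, or −0.13 without PKI C. After removal of the length trend the median of the paralogues was −0.073, again with 5 below 0. RPL36AL had a log2 change of −0.20 ± 0.060, RPS27L, a p53 target, −0.21 ± 0.071 and RPL39L 0.046 ± 0.084, and without PKI C they had −0.13, −0.16 and 0.022.

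Among 18 other mRNAs with a terminal oligopyrimidine tract, mostly of translation factors, 17 were below 0 with a median of −0.080, or 13 of 18 with a median of −0.026 without PKI C. EEF1B2, an exchange factor for elongation factor 1, measured 459.9, 469 and 441 CPM in libraries A to C of inPKI and 403, 425 and 372 CPM in those of PKI, a log2 change of −0.19 ± 0.064 (limma adjusted p = 0.223). TPT1 had a log2 change of −0.20 ± 0.072. Without PKI C the log2 changes of EEF1B2 and TPT1 were −0.14 and −0.14. EEF2, the translocase, measured 3418 ± 85.9 CPM in the controls against 3402 ± 214 CPM with PKI, and EEF1A1, which delivers aminoacyl-tRNA, 7597 ± 119.9 CPM in the controls against 7030.0 ± 579 CPM with PKI (SD, n = 3 each). The 77 ribosomal protein genes thus had a median farther from 0 than these 18 mRNAs. After removal of the length trend the medians lay nearer each other, at −0.068 and −0.041 in that order. The difference between the lists was not tested.

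Of 32 assembly factors, which process ribosomal RNA and build the subunits, 28 were below 0, with a median of −0.069. Without PKI C it was 24, with a median of −0.026. Over all genes tested 52.6% were below 0, or 43.8% without PKI C. EBNA1BP2 had a log2 change of −0.16 ± 0.057 and NHP2, of the box H/ACA particles, −0.16 ± 0.063, or −0.11 and −0.12 without PKI C. The 5 chaperones of ribosomal proteins were all below 0, with a median of −0.068, or −0.029 without PKI C. AAMP (−0.10 ± 0.065) and BCCIP (−0.078 ± 0.056) had the smallest p-values of these, and −0.029 and −0.035 without PKI C. Of 10 genes of RNA polymerase I and its factors, which transcribe ribosomal RNA, 5 lay below 0 and the median was −0.0050, or 4 with a median of 0.023 without PKI C. UBTF had a log2 change of −0.067 ± 0.053 and POLR1A of 0.061 ± 0.050, or −0.030 and 0.066 without PKI C. Of 12 genes that control mRNAs with the tract, 4 were below 0 and the median was 0.022, or 3 with a median of 0.031 without PKI C. After removal of the length trend 7 of these 12 were below 0 and the median turned to −0.016. MTOR, the kinase, measured 132, 131 and 135 CPM in libraries A to C of inPKI and 146, 140.3 and 142 CPM in those of PKI, a log2 change of 0.10 ± 0.050 (limma adjusted p = 0.379), and EIF4EBP1, which mTOR phosphorylates, had −0.15 ± 0.068 (limma adjusted p = 0.355). Without PKI C they had 0.11 and −0.060. With the length trend removed, the medians were −0.043 over the assembly factors and −0.064 over the chaperones. Over the genes of RNA polymerase I the median turned to 0.0093, with 4 below 0.

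The tract at the start of transcription and the change were set side by side. The 52 genes with a run of at least 8 bases had a median log2 change of −0.18 and the 10 with a shorter run −0.16. With CTTTC the median was −0.18 over 34 genes and without it −0.17 over 28. RPL27, with a run of 2 bases within 10 bases of the annotated start, had one of the changes farthest from 0. Its window ends in a longer run of C and T that holds CTTTC, so its run length depends on the annotated start. RPL28, with a run of 13 bases, had the change nearest to 0. Without PKI C the medians were −0.12 with and −0.10 without the run, and −0.12 with and −0.11 without CTTTC. No difference between these medians was tested.

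The log2 fold change and the signed linear fold change have opposite signs in every row of the authors' deposited table of their own comparison. PKIA has a linear fold change of 4.56 and a log2 fold change of −2.19 in the authors' deposited table, and since its CPM is higher in PKI the log2 fold change was turned. So turned to PKI over inPKI, in the authors' deposited table all 77 log2 fold changes were also below 0, with a median of −0.16 and a range of −0.29 to −0.038. The smallest adjusted p of a member in the authors' deposited table was 0.385, and 0 were below 0.05. A mean signal above 0 stands in the authors' deposited table for 2069 genes at 0 CPM in all 6 libraries, and the source of this was not tested.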

How the data were processed

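RNA of 6 HEK293 libraries, 3 a group by their titles, was prepared with an mRNA kit, per the labels' protocols. The build hg19 and the tools STAR 2.5.2b, RSEM 1.3.0, cutadapt 1.14 and DESeq2 1.20.0 stand in the submitters' processing notes without their settings, and use of strand in counting is not given in the sources used here. The authors deposited a table of CPM, whose name points to RSEM counts with TMM scaling. The authors' deposited table of their own comparison holds, per the file headers, a p-value before and after adjustment, a signed linear fold change and a Wald statistic (both treated as a score), a mean signal, and a log2 fold change and SE. Its log2 fold change was turned to PKI over inPKI.

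Every CPM value (100%, within 0.01 reads) was a whole multiple of what 1 read is worth in its column (0.0333 to 0.0437 CPM), so that reads were recovered by division. They may be rounded RSEM estimates, and PCR duplicates cannot be told apart. The scale of the test was log2(CPM + 1), on which changes of low genes are understated, for the 14275 genes with at least 1 CPM in at least 3 libraries. limma 3.58.1 in R 4.3.3 (mean-variance trend, 2-sided, no covariates) was fitted to all of them, with Benjamini-Hochberg adjustment over all and a threshold of 0.05. A log2 change is the PKI mean less the inPKI mean, with limma's moderated SE. Sums, medians and ratios over members carry no test. The test was tried on simulated counts.

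Members and gene lists were chosen with earlier results of these data known. Some genes are counted in the totals and not reported by name here. Named were PKIA, members past the threshold, the 8 of smallest p on either side of 0, the 5 highest and lowest by CPM per kilobase and by pseudogene share, members of stated roles (stalk, 5S particle, peptidyl transferase centre, tunnel, mRNA channel) and the 2 of smallest p in each other list. GENCODE 29 on GRCh38 gave gene positions, GC content and lengths by identifier (30795 matched, 165 not), not from the authors' alignment. Alternatives were other pseudocounts, filters and scalings, a replicate block, sample weights, DESeq2 1.42.0 and edgeR 4.0.16 on those reads, removal of trends of length and GC (lowess, span 0.3), addition of pseudogene rows, and leaving out libraries. DESeq2 and the length trend without PKI C, addition of read-through rows, the coding length and the overlap without PKI C were chosen after seeing the data. Figures were drawn with matplotlib 3.10.9.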

Additional observations from a re-analysis of the deposited data

How the results depend on the processing

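The median log2 change of the 77 genes stayed below 0 under all 25 alternatives run, and so did those of the large and of the small subunit. limma called 18 genes in all. The number was 4 with no filter on low values and 4 without a trend, 11 after rescaling to an equal sum, 11 with edgeR, 11 after removal of a GC trend, 10 after removal of a length trend, 9 after removal of both, 124 with a replicate block, 144 with sample weights, 253 with DESeq2, 95 with DESeq2 without PKI C and 49 without PKI A and PKI C. Members called, 0 in limma, were 3 with a replicate block (RPS21, RPS27A and RPS29), where 0.154% of all genes were called lower. They were 5 with sample weights (0.252%), 52 with DESeq2 (0.939%) and 20 with DESeq2 without PKI C (0.371%), all lower in PKI. With 1 library left out at a time, 9 to 114 genes and 0 to 6 members were called, the highest of both without PKI B.

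The letters A, B and C were not taken as pairs. Same-letter libraries had correlations of 0.017, 0.014 and 0.028 between their deviations from the group means, although each was the highest of its library. The block cannot move a log2 change in this balanced design, so the unmoved median of −0.17 says nothing on pairing. With the block 124 genes (102 higher, 22 lower) and 3 members were called, against 18 genes and 0 members without it.

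The medians over all members, the large and the small subunit were −0.068, −0.060 and −0.085 after removal of the length trend, −0.066, −0.059 and −0.080 after removal of the trends of length and GC, −0.046, −0.040 and −0.069 after removal of the length trend without PKI C, and −0.070, −0.066 and −0.077 without PKI A and PKI C. Leaving out 1 library moved the median of all members between −0.22 and −0.11. The summed CPM differed by −4.99% without PKI A and PKI C, and by −13.7% to −6.98% with 1 library left out. The difference in the ratio of the subunits stayed between 0.0102 and 0.0216 with 1 library left out.

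Among 44 members followed by name under 25 alternatives each, 14 of 1100 values turned above 0. RPL28 gave 0.025 with sample weights, 0.062 after removal of the length trend, 0.062 after removal of both trends, 0.019 with DESeq2 without PKI C, 0.11 after removal of the length trend without PKI C, and −0.13 to 0.036 with 1 library left out. RPS27 gave 0.022 after removal of the length trend, 0.027 after removal of both trends and 0.018 after removal of the length trend without PKI C. That last setting gave 0.024 in RPL3, 0.0085 in RPSA and 0.020 in RPS26. RPL3 ranged from −0.13 to 0.00045 with 1 library left out, and RPLP2 gave 0.017 without PKI A and PKI C. Beyond the libraries, lengths and tools named, the cause was not tested.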

Other observations

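Rows outside the 77 genes, chosen after their values were seen, differed more. RPS7P1, named as a pseudogene of RPS7, measured 13.2, 13.9 and 14.9 CPM in libraries A to C of inPKI and 10.3, 9.72 and 8.88 CPM in those of PKI, a log2 change of −0.50 ± 0.086 (limma adjusted p = 0.0356). RPL41P2, named as a pseudogene of RPL41, measured 40.2, 43.1 and 46.8 CPM against 34.5, 32.1 and 32.6 CPM, a log2 change of −0.38 ± 0.065 (limma adjusted p = 0.0356). Both fell, and reads of such copies and of the parent may have been split between the rows. RPL17-C18orf32, a read-through of RPL17 into its neighbour, measured 4.29, 5.54 and 4.22 CPM against 2.95, 1.96 and 1.71 CPM, a log2 change of −0.84 ± 0.15 that did not pass the threshold (limma adjusted p = 0.0500216). RPL17 itself had a log2 change of −0.16, and adding read-through rows to their ribosomal protein gene left 0 of 77 called.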
